A study of Homo sapiens with 12 samples.

Results

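The genes described here are the well-expressed members of the ZNF family of zinc finger genes in 3 human soft tissue sarcoma cell lines. A gene belonged if its platform symbol was ZNF followed by digits, with or without a letter after them, and its brightest probe set over the 12 arrays stood for it. The members were then chosen by their level in untreated cells, as a mean signal of 500 or more on the 3 untreated arrays, so the untreated levels below are a description. This kept 231 of 468 ZNF genes on the platform and of 19775 genes with a probe set of their own. Of the 231, 228 are annotated as protein-coding and 3 as transcribed pseudogenes. The established lines were A-204 (rhabdomyosarcoma per the labels), SK-LMS-1 (leiomyosarcoma) and VA-ES-BJ (epithelioid sarcoma). Each was kept for 6 h with taurolidine (250 µmol/l) and TRAIL (50 ng/ml) together, with TRAIL alone, with taurolidine alone, or untreated. Every treatment therefore has n = 3 arrays, 1 per line, and no line has a repeated treatment. Taurolidine is an antimicrobial agent derived from taurine, and TRAIL is a ligand of death receptors. The series title names the synergy of both agents as the question.

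Most ZNF genes encode proteins with zinc fingers of the C2H2 type, in which cysteine and histidine residues hold a zinc ion. The fingers in a row read DNA or, in some members, RNA. Many carry a KRAB domain, which binds the co-repressor TRIM28 and through it brings the histone methyltransferase SETDB1, heterochromatin protein and deacetylases to the bound site. KRAB zinc finger genes lie largely in clusters of relatives, most of them on chromosome 19, and a large part of them is known for silencing transposable elements. Other ZNF proteins activate promoters, take part in chromatin complexes, or act on ribosomes, splicing, ubiquitin or SUMO.

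Values are MAS5 signals, a linear measure of array brightness, and changes are differences of log2(signal + 11.8), so changes of dim genes are understated. A change is the mean over the 3 lines, given with its standard error (SE) from the fit, which pools the residual spread of all 12 arrays. The 3 signals or the 3 changes given in a row are those of A-204, SK-LMS-1 and VA-ES-BJ in that order. The median of an array lay between 123 and 155, and that of the whole table was 137. Of the line markers in untreated cells, KRT19 stood at 16189 in VA-ES-BJ, where SMARCB1 was near the table median at 152. The smooth muscle markers did not all have the same highest line. SK-LMS-1 was the highest line for TAGLN (9763) and for CNN1 (661). ACTA2 was highest in VA-ES-BJ, with signals of 1667, 1686 and 4980. DES (132, 127 and 145) and MYH11 (56.5, 137 and 71.5) were near or under the table median in every line. MYOD1, MYOG, MYF5 and CKM, markers of skeletal muscle, were at most 89.8 in every untreated line, A-204 included, and so under the table median. An array measures the RNA of a whole culture, so fewer cells with a transcript and less transcript per cell cannot be told apart.

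Untreated member means ran from 508 to 18200.5, with a median of 1068, and 175 of the 231 reached 500 in each of the 3 lines. The brightest was ZNF207, which encodes a spindle and kinetochore protein, with untreated signals of 18438, 17986 and 18178. ZNF706 followed with a mean of 11738, then ZNF146 with 9011, ZNF639 with 6146 and ZNF217, a gene amplified in breast cancers whose product joins co-repressor complexes, with 6022. Just inside the threshold were ZNF264 (508), ZNF136 (508) and ZNF696 (509.8). Just outside it were ZNF335 (499), ZNF354C (497) and ZNF480 (497), so the edge divides genes of nearly the same level. Of the 231, 14 differed by 4-fold or more between lines. ZNF521, a cofactor in progenitor cells, is one of these, at 1668, 505 and 17.0. ZNF804A, known from psychiatric genetics, stood at 3121, 2314 and 65.4, and it too was under the table median in VA-ES-BJ.

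A large part of these transcripts was lower in cells given taurolidine. The comparison tested is cells given both agents against cells given TRAIL alone, because its change does not use the untreated arrays by which the genes were chosen, although the fit's estimate of the spread does. Here 110 of 231 members fell and 1 rose at an adjusted p under 0.05 (limma, all 12 arrays, treatment and cell line as terms, adjusted over 14221 genes), which is meant by "called" from here on. Over all genes tested, 9.72% were called lower and 6.5% higher. Over the 9369 other genes that reached the same untreated threshold these shares were 12.2% and 7.99%, against 47.6% and 0.433% of the members. The median change of the members was -0.70 on the log2 scale, with the quartiles at -1.12 and -0.30, while the median was 0.06 over all genes and 0.03 over the other genes past the threshold. The family and these lists were chosen with earlier results of the same arrays known, so the count describes them and is no independent evidence.

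Each of the 110 called falls ran in the same direction in 3 of 3 lines, but the call itself favours changes that the lines share, so this adds little to it. By direction alone, 168 members (72.7%) were lower in 3 of 3 lines, against 23.2% of all genes and 27.2% of the other genes past the threshold. In 102 members (44.2%) every array with both agents lay below every array with TRAIL alone, against 7.02% of all genes and 7.85% of the other genes. Of the called falls 66 were 2-fold or more and 11 were 4-fold or more, and 44 were smaller than 2-fold. Among the 120 members not called, 98 had a lower and 22 a higher mean. All 231 passed the filter on low signal. The calls rest on the 3 lines together: 21 members were called lower when A-204 was left out, 39 when SK-LMS-1 was and 29 when VA-ES-BJ was. Of all genes, 1.55%, 2.89% and 1.95% were called lower in the same 3 fits. A fit of the 6 arrays of this comparison by themselves called 0 members and 0% of all genes (limma). In it 136 members were under an unadjusted p of 0.05, and the share of all genes was not counted. Without the cell line term 20 were called, where 0.956% of all genes were called lower.

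The largest fall was that of ZNF627, with signals of 286, 284 and 215 with both agents, against 2361, 1492 and 2820.5 with TRAIL alone, a 7.96-fold lower level (-2.99 ± 0.22, adjusted p = 0.000576). ZNF267, which encodes a KRAB protein, had signals of 249, 329.7 and 274 with both agents, against 1795, 1813 and 3245 with TRAIL alone (7.5-fold lower, -2.91 ± 0.24, adjusted p = 0.000785). Both groups of arrays were far apart in these genes, and the lowest array with TRAIL alone was several times the highest with both agents. ZNF92, also a KRAB gene, had signals of 603, 283 and 478 with both agents, against 2584, 1940.4 and 3907 with TRAIL alone (6.07-fold lower, -2.60 ± 0.20, adjusted p = 0.000606). ZNF217 was the brightest gene among the large falls, with signals of 1420.0, 1057 and 1109 with both agents, against 5936, 4844 and 7615 with TRAIL alone (5.05-fold lower, -2.33 ± 0.18, adjusted p = 0.000606). With both agents the level of ZNF217 was nearly equal in the 3 lines, while with TRAIL alone VA-ES-BJ was highest.

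ZNF680 had signals of 213, 213 and 139.9 with both agents, against 894, 1385 and 2044 with TRAIL alone (6.98-fold lower, -2.80 ± 0.51, adjusted p = 0.0118). In this gene VA-ES-BJ was the lowest line with both agents and the highest with TRAIL alone. ZNF71 had signals of 111, 192 and 156 with both agents, against 754, 724 and 1119.9 with TRAIL alone (5.33-fold lower, -2.41 ± 0.39, adjusted p = 0.00738), and ZNF329 of 146, 179 and 312 with both agents, against 1121, 963 and 1232 with TRAIL alone (5.2-fold lower, -2.38 ± 0.31, adjusted p = 0.00348). The 3 arrays with both agents did not overlap those with TRAIL alone in either gene. The other genes among the 15 largest called falls were ZNF273 (5.58-fold lower), ZNF107 (4.76-fold), ZNF823 (4.16-fold), ZNF431 (4.09-fold), ZNF526 (3.61-fold), ZNF12 (3.55-fold), ZNF43 (3.45-fold) and ZNF567 (3.42-fold), with adjusted p between 0.000822 and 0.00991 (limma).

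ZNF431, a KRAB gene, had signals of 176, 174 and 139 with both agents, against 667, 597 and 862 with TRAIL alone (-2.03 ± 0.35, adjusted p = 0.0094). ZNF12, another KRAB gene, had signals of 680.0, 654 and 1738 with both agents, against 2795, 2736 and 4661 with TRAIL alone (-1.83 ± 0.16, adjusted p = 0.000921). ZNF43, a further KRAB gene, had signals of 326, 323 and 237 with both agents, against 870.2, 1067 and 1198 with TRAIL alone (-1.79 ± 0.22, adjusted p = 0.00266, all limma). In all 3 genes every array with both agents lay below every array with TRAIL alone. ZNF107 had signals of 313, 225 and 175 with both agents, against 1076, 844 and 1655 with TRAIL alone and ZNF273 of 264, 205 and 115 with both agents, against 954, 856 and 1558 with TRAIL alone. ZNF823 had signals of 177, 332 and 376 with both agents, against 849.8, 1109 and 1865 with TRAIL alone, and the groups did not overlap in these 3 genes either.

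**Figure D1:**
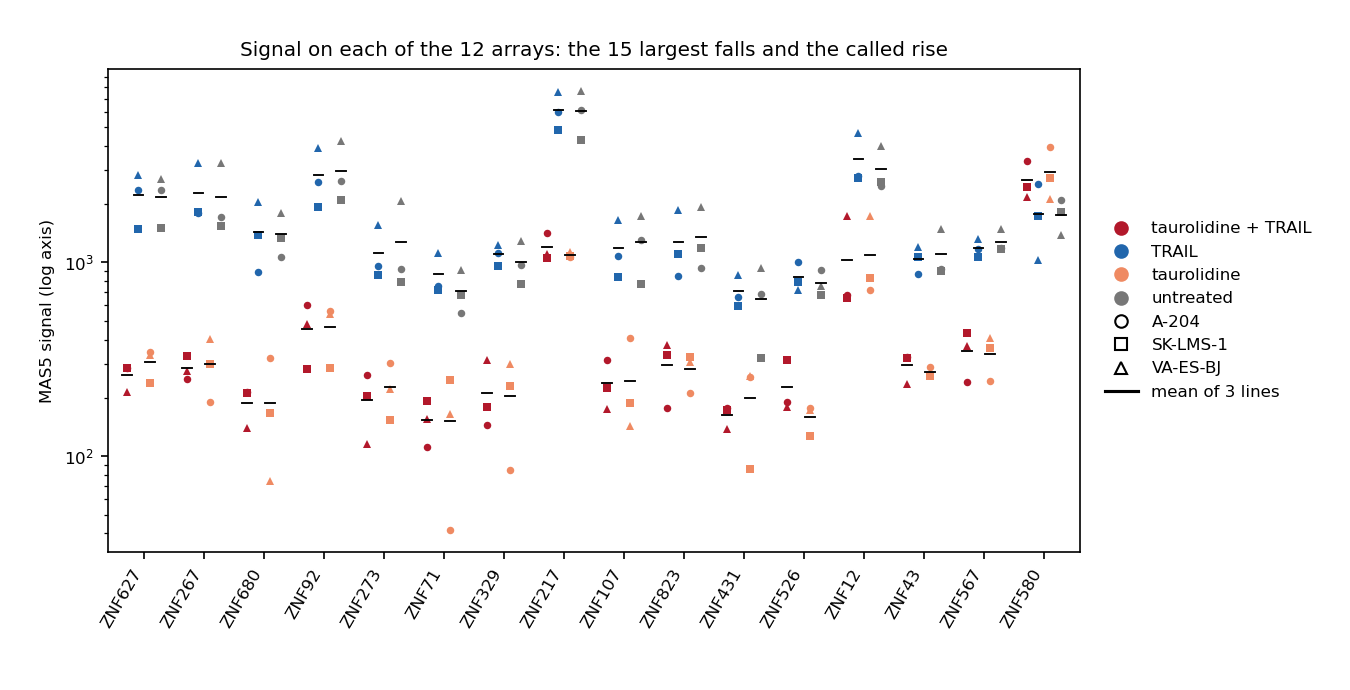
MAS5 signal (log axis) on each of the 12 arrays for the 15 largest called falls and the called rise, with the points of taurolidine plus TRAIL left of TRAIL and those of taurolidine left of untreated. Shapes mark the 3 lines and bars the mean of 3 lines. In ZNF627 the arrays with both agents lie between 215 and 286, and those with TRAIL alone between 1492 and 2820.5.

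Promoter letters were taken from RefSeq (GRCh38.p14) for 197 of the 231 members, as the 250 bases before the annotated start. They are shown for both genes with the largest falls, for ZNF217 and for the called rise, ZNF580, because they are the largest falls, the brightest gene among the 15 largest falls and the rise. Capitals mark matches, on either strand, to 8 motifs. These were TATAAA (the TATA box), CCAAT (the CCAAT box), GGGCGG (a GC box), CCGGAAG (a core read by ETS factors), TGACGTCA (the cAMP response element), GCGCATGC (read by NRF1), ACTACAA (part of the site of ZNF143) and AAGATGGC (read by YY1), and capitals that join belong to neighbouring matches.
ZNF627, chr19:11597233-11597482, plus strand: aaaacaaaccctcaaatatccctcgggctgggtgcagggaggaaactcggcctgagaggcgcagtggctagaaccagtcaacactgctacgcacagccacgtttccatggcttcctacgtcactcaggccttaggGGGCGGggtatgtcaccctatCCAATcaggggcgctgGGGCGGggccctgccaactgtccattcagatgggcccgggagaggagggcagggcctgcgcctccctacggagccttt
ZNF267, chr16:31873557-31873806, plus strand: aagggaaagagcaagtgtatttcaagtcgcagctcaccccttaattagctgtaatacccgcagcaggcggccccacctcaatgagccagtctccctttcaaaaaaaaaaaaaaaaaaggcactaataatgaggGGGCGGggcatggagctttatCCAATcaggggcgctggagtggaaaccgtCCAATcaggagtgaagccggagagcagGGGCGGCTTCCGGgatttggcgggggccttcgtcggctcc
ZNF217, chr20:53593840-53594089, minus strand: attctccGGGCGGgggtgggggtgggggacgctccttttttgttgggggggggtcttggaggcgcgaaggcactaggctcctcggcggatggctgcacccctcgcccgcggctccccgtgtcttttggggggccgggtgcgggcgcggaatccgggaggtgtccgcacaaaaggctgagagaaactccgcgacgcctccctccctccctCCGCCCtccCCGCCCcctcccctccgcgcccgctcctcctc
ZNF580, chr19:55640752-55641001, plus strand: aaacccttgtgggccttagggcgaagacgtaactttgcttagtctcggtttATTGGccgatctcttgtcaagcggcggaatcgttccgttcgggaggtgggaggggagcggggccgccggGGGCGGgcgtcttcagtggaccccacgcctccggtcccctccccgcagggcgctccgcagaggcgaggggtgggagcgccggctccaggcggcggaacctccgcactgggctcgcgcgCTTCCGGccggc

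The called rise was ZNF580, with signals of 3329.7, 2436 and 2181 with both agents, against 2534, 1744 and 1029 with TRAIL alone, 1.57-fold higher (0.65 ± 0.15, adjusted p = 0.026). The groups overlapped in this gene, since SK-LMS-1 and VA-ES-BJ with both agents lay below A-204 with TRAIL alone, although each line rose. It lost its call without each line in turn, with no filter on low values, and with scaling to the poly-A spikes, where its change was 0.10. These spikes are control RNAs added before labelling, and scaling to them moved the median change of all genes to -0.47, against 0.06 as deposited. Under that scaling 203 members (87.9%) were called lower and none higher, while 44.0% of all genes were called lower. The members' median there lay -0.77 from that of all genes, against -0.76 as deposited. With quantile normalisation the distance was -0.63, with 89 members called lower and 6 higher, where 8.43% of all genes were called lower. Of all gene calls, 40.1% were higher as deposited, 52.2% with quantile normalisation, 25.3% with equal array medians and 0.902% under spike scaling. The poly-A spikes were higher with taurolidine by 0.73, 0.52 and 0.54 on the log2 scale, and their part in the result was not tested.

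The fall was present in each line and its median was lowest in A-204. The median change of the members for A-204 was -0.84, that for SK-LMS-1 -0.51 and that for VA-ES-BJ -0.62, where the medians of all genes were 0.03, 0.07 and 0.05. In A-204 205 members were lower with both agents, 95 of them by 2-fold or more. SK-LMS-1 had 192 lower members, 52 by 2-fold or more, and VA-ES-BJ 195, of which 73 by 2-fold or more. A-204 had the lowest of the 3 changes in 123 members, VA-ES-BJ in 73 and SK-LMS-1 in 35. These orders have 1 array per line and treatment and were not tested over the family. The largest fall in A-204 was that of ZNF584, at -4.53, which was not called over the 3 lines (limma adjusted p = 0.0586). Its signals were 22.6, 294 and 170.1 with both agents, against 785, 493 and 521 with TRAIL alone, so in A-204 it ended far under the table median and its fold there depends on the constant. The largest fall in SK-LMS-1 was that of ZNF92 (-2.73) and in VA-ES-BJ that of ZNF680 (-3.76). The largest rise was 0.66 in A-204, for ZNF585A, 0.93 in SK-LMS-1, for ZNF467, and 1.07 in VA-ES-BJ, for ZNF580, and neither ZNF585A nor ZNF467 was called over the 3 lines. A further probe set of ZNF585A was called lower, at -0.90.

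**Figure D2:**
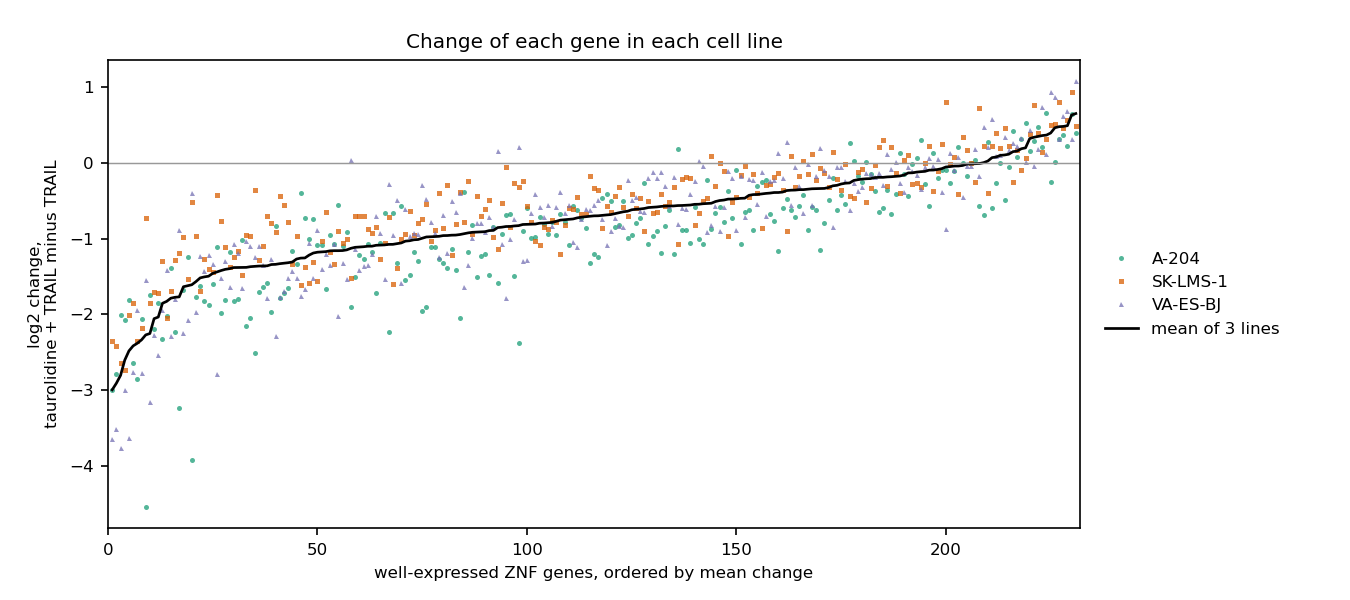
Log2 change, taurolidine plus TRAIL minus TRAIL, of the 231 genes in order of their mean change; points are the 3 lines and the black line is the mean of 3 lines. The mean is below 0 for 208 genes and above it for 23, from -2.99 to 0.65.

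Whether the lines differed in the taurolidine effect was tested over the arrays with and without TRAIL together (limma, cell line by taurolidine terms). Of the members 7 were called, of 231, against 1.43% of all genes. This test uses the untreated arrays by which the members were chosen, so the count is a description. ZNF804A and ZNF518B were under the table median in VA-ES-BJ, where little fall can be seen. The 7 were ZNF804A, ZNF367, ZNF700, ZNF512B, ZNF668, ZNF518B and ZNF93. The effect on ZNF804A over both TRAIL states was -3.91, -0.52 and -0.25. On ZNF367 it was -0.62, -0.10 and -1.74, so this gene fell most in VA-ES-BJ and hardly in SK-LMS-1. ZNF700 (-1.17, -0.27 and -1.42) and ZNF512B (-1.44, -0.29 and -1.26) shared the small change in SK-LMS-1. ZNF700 and ZNF512B were also called lower over the 3 lines together, at -0.92 ± 0.26, adjusted p = 0.0479 and -0.96 ± 0.27, adjusted p = 0.0463 (limma).

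Genes of the same untreated signal were set beside the members in 4 bands. Between 500 and 1000, 43 of 107 members were called lower, with a median change of -0.65, against 163 of 1680 other genes with a median of 0.0003. Between 1000 and 2000 the counts were 53 of 90 members and 356 of 2181 other genes, with medians of -0.78 and -0.03. Between 2000 and 4000 they were 9 of 23 and 387 of 2285, with medians of -0.34 for members and -0.05 for other genes. Over 4000 they were 5 of 11 and 237 of 3223, with medians of -0.33 for members and 0.10 for other genes. The member median was the lower one in each of the 4 bands, and the difference between the sets was not tested.

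**Figure D3:**
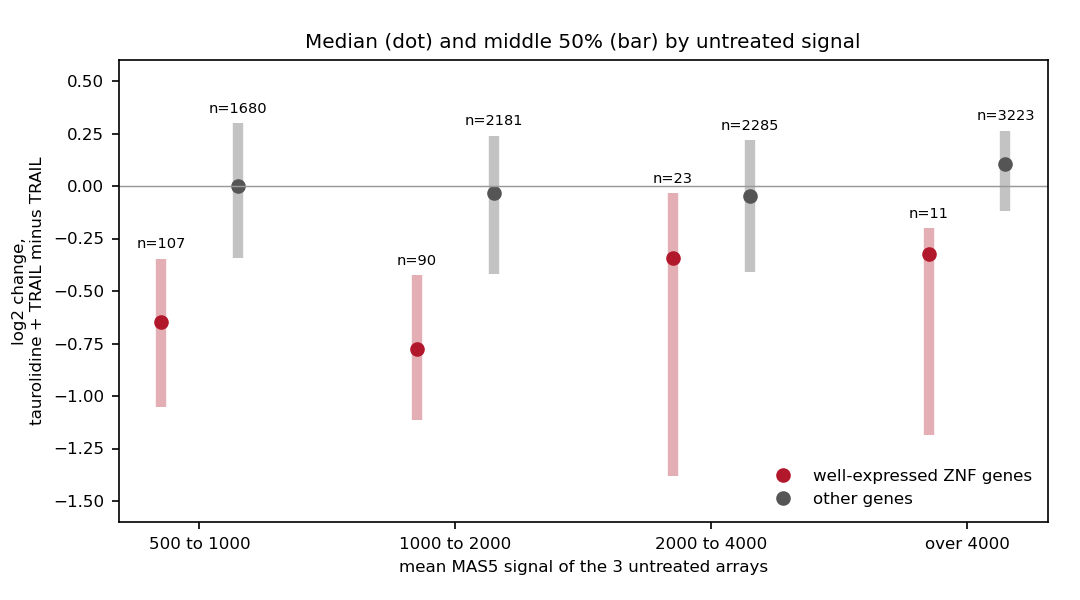
Median (dot) and middle 50% (bar) of the log2 change, taurolidine plus TRAIL minus TRAIL, of the well-expressed ZNF genes (left of each pair) and of other genes (right), by mean MAS5 signal of the 3 untreated arrays. In the band from 1000 to 2000 the member median of -0.78 lies under the bar of the other genes, which starts at -0.42.

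Related zinc finger families held falls as well. Of 28 ZBTB genes, which join zinc fingers to a BTB domain, 15 were called lower and 1 higher (median -0.67), and of 22 ZSCAN, ZKSCAN and ZFP genes 10 and 1 (median -0.53). Of the 179 ZNF genes under the untreated threshold that passed the filter, 50 were called lower and 1 higher, with a median of -0.64. The proteins through which KRAB zinc finger proteins act were called in both directions: of 20 measured genes, of 21 listed, 2 fell and 2 rose, with a median of -0.01. These shares are near the 9.72% and 6.5% of all genes, so the counts say nothing particular to the list. SETDB1, the histone methyltransferase of the pathway, fell (-0.87 ± 0.16, adjusted p = 0.0132), as did TASOR, a scaffold of the HUSH silencing complex (-0.52 ± 0.14, adjusted p = 0.0414). TRIM28, the co-repressor that KRAB domains bind, rose (0.38 ± 0.10, adjusted p = 0.0353), and so did the deacetylase gene HDAC1 (0.42 ± 0.10, adjusted p = 0.026, all limma). With quantile normalisation or equal array medians both rises and the fall of TASOR were no longer called, and under spike scaling TRIM28 and HDAC1 turned to -0.17 and -0.14. MPHOSPH8, which reads the methyl mark for HUSH, stood at -0.63 ± 0.20, adjusted p = 0.0667, and CHD3, a remodeller of the NuRD complex, at 0.37 ± 0.12, adjusted p = 0.0676 (limma). No difference between these families and the members was tested.

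**Figure D4:**
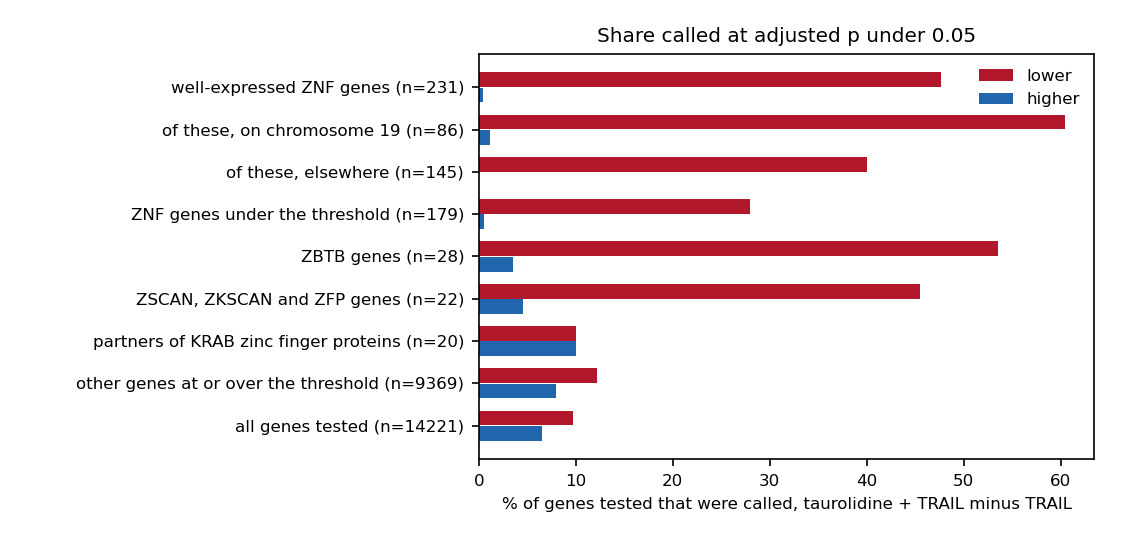
Share of the genes tested that were called lower (upper bar of each pair) and higher (lower bar), in percent, for taurolidine plus TRAIL minus TRAIL. The well-expressed ZNF genes stand at 47.6% lower and all genes tested at 9.72%.

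The members lay on 21 chromosomes, 86 of them on chromosome 19, 20 on chromosome 7 and 16 on chromosome 16 (RefSeq, GRCh38.p14, which matched all 231). On chromosome 19, 52 of 86 members were called lower (median -0.80), against 58 of 145 elsewhere (median -0.59). The 512 other genes of chromosome 19 past the threshold had 25 called lower, 82 higher and a median of 0.22. The longest run of neighbouring members on chromosome 19, with no other protein-coding gene between them, was ZNF776, ZNF586, ZNF552, ZNF587B, ZNF587 and ZNF814, of which 4 of 6 were called lower (median -0.69). On chromosome 7 the neighbours ZNF736, ZNF680, ZNF107, ZNF138 and ZNF273 were called lower in 5 of 5 cases, with changes from -2.80 to -1.08 and a median of -2.25. ZNF138 had signals of 463, 457 and 468 with both agents, against 739, 960.2 and 1378 with TRAIL alone, and ZNF736 of 254, 222 and 733 with both agents, against 411, 699.7 and 1432 with TRAIL alone. Neighbours of this kind are relatives in sequence, and ZNF680, ZNF107, ZNF138 and ZNF273 were read with probe sets of the x type, which the platform marks as able to bind other transcripts. The neighbours ZNF329, ZNF274 and ZNF544 on chromosome 19 were called lower in 3 of 3 cases (median -1.40), as were ZNF398, ZNF282 and ZNF212 on chromosome 7 (median -0.84). Further probe sets of ZNF274 and ZNF544 were at 0.79 and 0.39, neither called. On chromosome 12, ZNF605, ZNF26, ZNF84 and ZNF140 had changes of -0.66 to -0.48, 3 of 4 called. ZNF33A, ZNF37A and ZNF33B on chromosome 10 had no call among the 3 and values of -0.41 to -0.12. In 1 of 3 cases a call was found among ZNF747, ZNF764 and ZNF688 on chromosome 16 (median -0.34). The same held for ZNF234, ZNF226 and ZNF227 on chromosome 19 (median -0.37, highest 0.35). The highest was ZNF226, not called, and a further probe set of it was called lower, at -1.12. Of all members 47.6% were called lower.

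Members with known roles were described from lists. Of 19 listed regulators of DNA and chromatin 14 were members, and 8 of them (57.1%) fell and none rose, with a median of -0.83. Over all members 47.6% were called lower and over all genes 9.72%, so the count is not particular to this list. After ZNF217, the largest fall was that of ZNF274, a KRAB protein known to bring SETDB1 to zinc finger genes themselves, with signals of 543, 1015 and 932 with both agents, against 1934, 2211 and 2299 with TRAIL alone (-1.40 ± 0.15, adjusted p = 0.00159). ZNF281, a factor of pluripotency and epithelial-mesenchymal transition, had signals of 613, 954 and 1607 with both agents, against 1934, 2051 and 4102 with TRAIL alone (-1.36 ± 0.14, adjusted p = 0.00155). ZNF644, a partner of the histone methyltransferases G9a and GLP, had signals of 2186, 2753 and 1664 with both agents, against 5524, 5364 and 4777 with TRAIL alone (-1.27 ± 0.16, adjusted p = 0.00289). In these genes the arrays with both agents lay below all those with TRAIL alone. ZNF318 changed by -1.11 ± 0.20, adjusted p = 0.0118 and ZNF518A by -0.68 ± 0.15, adjusted p = 0.025 (limma). ZNF148, a protein that binds GC-rich promoters (-1.33 ± 0.37, adjusted p = 0.0463), and ZNF462 (-0.65 ± 0.18, adjusted p = 0.0499) lay just inside the threshold (limma). The call of ZNF148 was lost with a constant of 1, with no filter, with quantile normalisation, with equal medians and without A-204 or VA-ES-BJ. The further probe set of ZNF274 was at 0.79, and its mean over probe sets was -0.31 and not called. A further probe set of ZNF518A ran the other way, as given below. ZNF143, an activator bound to many promoters, was not called, with signals of 918, 1803 and 1266 with both agents, against 1389, 1543 and 849 with TRAIL alone (0.07 ± 0.22, adjusted p = 0.857). Its change was negative in A-204 and positive in both other lines. ZNF24 (-0.13 ± 0.12, adjusted p = 0.473), ZNF609 (-0.55 ± 0.21, adjusted p = 0.108), ZNF703 (-0.83 ± 0.38, adjusted p = 0.169), ZNF521 (-0.83 ± 0.53, adjusted p = 0.306) and ZNF395 (0.48 ± 0.15, adjusted p = 0.0677) were not called either (limma).

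Members that act on RNA, ribosomes, mitosis, SUMO or ubiquitin included 1 call: of 11 listed, all of them members, 1 fell and none rose, a share near the 9.72% of all genes called lower, with a median of -0.21. The call was ZNF346, which encodes a protein that binds double-stranded RNA, with signals of 795, 562 and 715 with both agents, against 1498, 885 and 821 with TRAIL alone (-0.58 ± 0.15, adjusted p = 0.0366). Its further probe sets were at 0.54 and -0.08, neither called, and the mean over its sets, -0.04, was not called. ZNF207 had signals of 18745, 15581 and 20968 with both agents, against 20798, 19581 and 23208 with TRAIL alone (-0.21 ± 0.11, adjusted p = 0.234), and the groups overlapped. Of its 7 further probe sets 3 were called lower, at -1.42, -1.72 and -1.10, and the mean over its sets was called lower at -0.75, so the probe sets of this gene disagree. ZNF326, a subunit of the DBIRD complex that links elongation and splicing, had signals of 3744, 3623 and 2876 with both agents, against 4298, 3919.8 and 2786 with TRAIL alone (-0.09 ± 0.10, adjusted p = 0.553). ZNF598, the ubiquitin ligase that senses collided ribosomes, had a mean change of 0.0017 ± 0.28 (limma adjusted p = 0.998), with opposite signs in A-204 (-0.69) and VA-ES-BJ (0.47). ZNF451, a SUMO ligase, was lower on every array with both agents than on those with TRAIL alone, at 1059, 1489.6 and 1411 with both agents, against 2269.9, 3114 and 3548 with TRAIL alone, and was not called (-1.16 ± 0.42, adjusted p = 0.0954), while a further probe set of it was, at -1.42. The values of the others were -0.47 for ZNF622, a ribosome maturation factor, -0.34 for ZNF638, -0.33 for ZNF706, -0.16 for ZNF277, -0.11 for the nucleolar ZNF330 and 0.36 for ZNF593, none of them called. ZNF592 and ZNF532, which bind the chromatin reader ZMYND8, were not called, at -0.42 ± 0.17, adjusted p = 0.119 and -0.01 ± 0.21, adjusted p = 0.976 (limma). Of the brightest members outside the lists, ZNF639 fell 2.57-fold (-1.36 ± 0.13, adjusted p = 0.00114) and ZNF146 1.73-fold (-0.79 ± 0.13, adjusted p = 0.00808). The difference between these lists and the other members was not tested, and each list is small.

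Zinc finger genes resemble each other, so a probe set may read relatives. Of the member probe sets 30 were of the x type and 40 of the s type, which can bind several transcripts. Of these 70 members 33 were called lower (median -0.60), and of the 161 others 77 (median -0.72). The 70 include ZNF627, the largest fall, and ZNF580, the called rise, so both may read other transcripts. For 65 of the 110 members called lower, 97 further probe sets passed the filter. Of these 81 were lower as well, 47 of them called in a fit over 27105 probe sets, and 16 were higher, 1 of them called. The share called over all 27105 probe sets was not counted, so these counts are a description. The median of the 97 was -0.97, against -1.15 for the chosen probe sets of the same genes. Over all 222 further probe sets, those of members not called included, the median was -0.59. The further probe sets of ZNF12 were all called lower, at -1.58, -1.62 and -1.30, as were those of ZNF92, at -0.97 and -1.37. In ZNF107 a further set was at -1.13 and another at 0.37, in ZNF273 the further set was at 0.33 and in ZNF19 at 0.10, none of them called. In ZNF71 the further set was at 0.45, in ZNF274 at 0.79, and in ZNF567 the sets were at -0.999, 0.55 and -1.80, of which the last was called lower and no other of these was called. In ZNF518A the further set was called higher, at 1.21, against -0.68 for the brighter one, so the direction of this gene is uncertain.

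Taurolidine without TRAIL is given as a description, since choosing genes for a high untreated level leans a change from untreated cells downward. Against untreated cells 120 of 231 members passed the threshold lower and 3 higher, where 11.5% and 7.71% of all genes and 14.2% and 10.7% of the other genes past the threshold did so, and the member median was -0.71. The pair of contrasts shares no array, but both use the same estimate of each gene's spread, so a gene of small spread tends to pass in both. The overlap over all genes was not counted, so the shares that follow are a description. Of the 110 members called lower with taurolidine on top of TRAIL, 101 (91.8%) were also past the threshold here, which is 84.2% of the 120. ZNF627 had signals of 344, 239.8 and 335 with taurolidine, against 2366, 1501 and 2695 in untreated cells. ZNF217 had signals of 1065, 1074 and 1135 with taurolidine, against 6102, 4299 and 7666 in untreated cells. In both genes the levels with taurolidine lay in the range seen with both agents or close to it. When genes were chosen instead by a mean of 500 or more on the TRAIL arrays, which leaves the untreated arrays out of the choice, 116 of 227 passed lower against untreated cells, with a median of -0.66. Both agents against untreated cells gave 124 lower and 2 higher (11.3% and 7.58% of all genes), with a member median of -0.73; this comparison shares the untreated arrays with the one before.

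**Figure D5:**
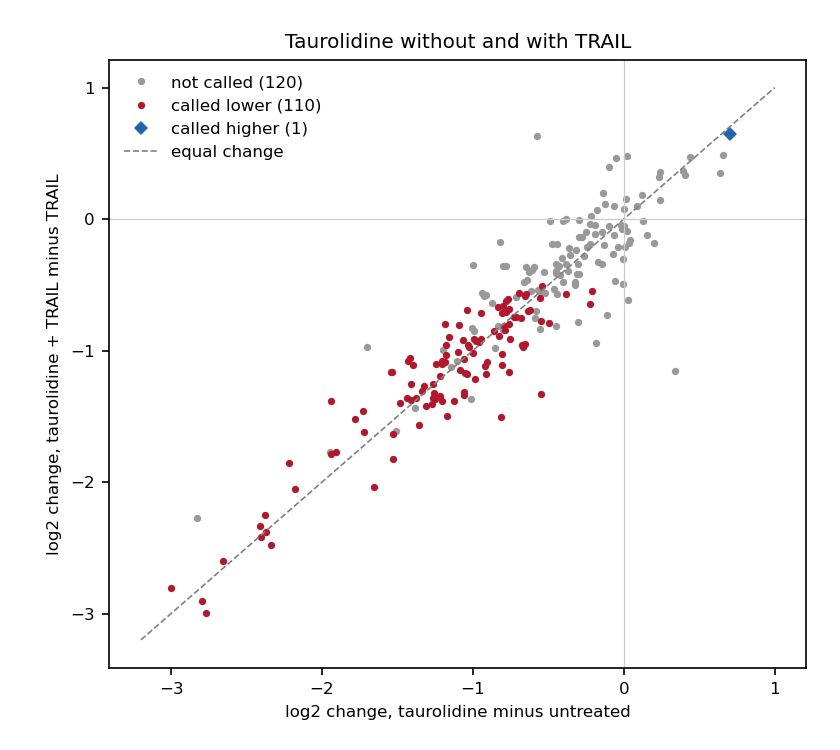
Log2 change of the 231 genes with taurolidine against untreated cells (horizontal) and with taurolidine plus TRAIL against TRAIL (vertical), with the dashed line at equal change. Colours mark the 110 genes called lower, the 1 called higher and the 120 not called on the vertical axis, and the medians are -0.71 on the horizontal and -0.70 on the vertical axis.

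No member changed with TRAIL past the threshold. With TRAIL on top of taurolidine 0 of 231 members were called (limma, 2 at an unadjusted p under 0.05, and 0% of all genes called), and the member median was -0.01, with changes from -0.50 to 0.95. The smallest p was that of ZNF579, whose signals were 293, 318 and 812 with both agents, against 141, 139 and 486 with taurolidine alone (0.95 ± 0.25, adjusted p = 0.9998). All 3 lines were higher with both agents, and the gene stayed below its level with TRAIL alone, 1067, 769 and 1724, in each line. ZNF23 stood at 0.44 ± 0.17, ZNF174 at -0.28 ± 0.15 and ZNF19 at -0.38 ± 0.20, each with an adjusted p of 0.9998. TRAIL alone against untreated cells, again a description, put no member past the threshold (limma, 4 at an unadjusted p under 0.05, 0% of all genes), with a median of -0.04.

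In the sequences printed above, the promoters of ZNF627 and ZNF267 both held GGGCGG and CCAAT, and that of ZNF267 also CCGGAAG, in reverse beside a GGGCGG. That of ZNF217 held GGGCGG alone, on both strands, and that of ZNF580 held all 3. Over the family, CCGGAAG was in 33.5% of 197 member promoters, 16.9% of 7836 promoters of other genes past the untreated threshold and 8.82% of all 27305 promoters listed. Members called lower and members not called lower held it at 34.0% and 33.0%. GGGCGG was in 61.9% of member promoters, 69.2% of those of the other genes and 42.3% of all. CCAAT was in 44.2%, 35.7% and 33.0% in the same order, and TATAAA in 1.52%, 4.85% and 11.1%. ACTACAA was in 8.12%, 3.75% and 2.64%, and GCGCATGC in 8.12%, 5.12% and 2.81%. TGACGTCA was in 4.06%, 3.02% and 1.77%, and AAGATGGC in 2.54%, 1.95% and 1.37%. The median GC content was 62.0% in members and 65.6% in the other genes past the threshold. A match is a match of letters in this window, and binding was not measured.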

How the data were processed

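Biotinylated cRNA from total RNA was hybridised to 1 array per line and treatment, per the labels' protocols. The authors deposited linear MAS5 intensity per probe set, and MAS5 is named per the submitters' processing notes; its version, its detection calls and the target of its scaling are not given here. Without the lowest and highest 2%, array means were 999.8 to 999.9, a common scaling under which a change in total RNA per cell is not visible.

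The platform annotation gave 41097 of 54675 probe sets a single gene, 1801 several and 11777 none listed; only the first named genes. Probe sets over the table median, 137, on at least 3 arrays were kept, the brightest per gene, as log2(signal + 11.8), the 10th percentile. Across all 14221 genes, limma 3.58.1 in R 4.3.3 fitted treatment and cell line to all 12 arrays (6 residual and 1.98 prior degrees of freedom), with Benjamini-Hochberg adjustment and a threshold of 0.05. The line test had cell line, TRAIL, taurolidine and cell line by taurolidine terms. The fit was tested on simulated data. Arrays were paired by cell line, per the labels; deviations from treatment means correlated at 0.857 to 0.908 within lines. No 2 arrays shared over 0.00183% of their values. Separate cultures are not stated in the labels, and the p-values cover only the spread between these 12 arrays, which may in part be technical; the number of arrays limits the precision.

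Named were the 15 largest called falls and 8 largest called rises with 1 direction in 3 lines (1 rise existed), the 5 brightest, the 3 nearest the threshold on each side, the smallest p for TRAIL and for line differences, the extremes of each line and the fixed lists; the other genes called for line differences, neighbouring genes, genes of differing untreated level and further probe sets of named genes were added after their values were seen. The members and lists were chosen with earlier results of these data known. Finger counts and KRAB domains are not analysed here. Alternatives changed the constant, filter, normalisation, cell line term, arrays, threshold and probe set.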

Additional observations from a re-analysis of the deposited data

Results flagged for a closer look

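The taurolidine effect differed between cell lines in 7 of 231 members, against 1.43% of all genes (limma, test of the cell line by taurolidine terms, adjusted over 14221 genes). The untreated arrays that chose the members are part of this test, so it is a description. ZNF804A (adjusted p = 0.00114) changed by -3.91, -0.52 and -0.25 in A-204, SK-LMS-1 and VA-ES-BJ, and its signal in VA-ES-BJ was at most 65.4 on any array, under the table median. ZNF367 (adjusted p = 0.00969) changed by -0.62, -0.10 and -1.74 in the same order. ZNF700 (adjusted p = 0.0276) changed by -1.17, -0.27 and -1.42, and ZNF512B (adjusted p = 0.0317) by -1.44, -0.29 and -1.26. ZNF668 (adjusted p = 0.0327) changed by -3.68, -0.84 and -1.05, where A-204 with taurolidine had signals of 49.7 and 36.4 with and without TRAIL, so the size there depends on the added constant. ZNF518B (adjusted p = 0.0372) changed by -1.80, -1.44 and -0.17 and was at 43.3 or less in VA-ES-BJ. ZNF93 (adjusted p = 0.0397) changed by -0.62, -1.37 and -1.79.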

How the results depend on the processing

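The median change of the members with taurolidine on top of TRAIL, -0.70, stayed below 0 under every alternative run, from -1.24 with poly-A spike scaling to -0.42 when genes were chosen by their arrays with both agents, a choice that leans against falls. Its range without 1 line was -0.74 to -0.57. The count called lower, 110, was 203 under spike scaling, 82 with no filter on low values and 20 without the cell line as replicate block. It was 0 with only the 6 arrays compared, 67 of 124 members at a threshold of 1000, 54 of 150 chosen by the arrays with both agents, and 21 to 39 without 1 line. Of all genes, 44.0% were called lower under spike scaling, 4.42% with no filter, 0.956% without the block, 0% with the 6 arrays, and 1.55% to 2.89% without 1 line. Of the 110, 20 were called without the block. The smaller fits hold fewer arrays. The 1 gene called higher became 0 with no filter, 5 with the filter on all 12 arrays, 6 with quantile normalisation, 2 at a threshold of 250, and 0 under spike scaling, without the block, with 6 arrays, without any 1 line and without x and s probe sets. Past the threshold against untreated cells were, for taurolidine and for both agents, 211 and 193 under spike scaling, 19 and 22 without the block, 0 and 0 with 6 arrays, 70 and 71 at 1000, 60 and 60 chosen by the arrays with both agents, and 32 to 42 and 21 to 48 without 1 line. For these the counts as reported were 123 and 126. No share of all genes in the same fits stands beside these counts, so they are a description. TRAIL gave no call under any of them. Line differences, 7 as reported, were 12 with a constant of 50, 2 with no filter, 25 with the filter on all 12 arrays and 3 with equal medians. They were 4 with all probe sets averaged, at 1000, chosen by the arrays with both agents, or without x and s probe sets. As reported, 1.43% of all genes were called for line differences, and the refits have no such share beside them. Of 740 values of 58 named members, 562 kept direction and call, 133 lost and 25 gained a call, and 17, from 8 members not called in either setting, changed sign. Called values turned in 3 cases: with the filter on all 12 arrays, where another probe set stands for the gene, ZNF19 was at 0.10 and ZNF273 at 0.33, and with probe sets averaged ZNF518A was at 0.27. The cause of the other changes was not tested.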
